A study of Danio rerio with 2 samples.

Results

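The cells described here were drawn from the hearts of 72-hpf zebrafish larvae and were chosen by their own transcripts. A cell was taken as a member when it held at least 1 UMI of at least 2 of the genes *cdh4*, *gstm.3*, *esr1* and *postna*, and no UMI of *postnb*, *cfd* or *myb*. Of the 4125 cells of the 72 hpf library, 491 met this rule (11.9%, 95% interval 10.9 to 12.9%). The 2 libraries together held 6790 cells. At 48 hpf the same rule found 12 of 2665 cells (0.450%, interval 0.233 to 0.785%). The endothelial gene *cdh5* was seen in 480 of the 491 members. Against the other cells with *cdh5*, levels of the matrix genes *dcn*, *mfap2* and *col1a1a* were 2.73-fold, 2.60-fold and 2.35-fold higher in the members, and that of *tmem88a*, a gene of the ventricular endocardium, was 2.28-fold lower. The members lay in 12 of 14 cell clusters, with 191 of them in 1 cluster.

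Both libraries came from *Tg(kdrl:*nls-mCherry); *Tg(cd41:*GFP) embryos, with no other allele or agent, raised to 48 or 72 hpf. In this line mCherry, driven by *kdrl* regulatory sequence, labels the nuclei of endothelium and endocardium, and *cd41*:GFP marks thrombocytes and early blood progenitors. Hearts were dissected and dissociated. Live cells positive for mCherry alone were sorted along with cells positive for both colours, and the sorts were combined, so the share of blood cells was set partly by the sort. How many hearts were pooled per library, and whether any were kept apart, is not given in the sources used here. There was 1 library per age. No test between cell groups or ages was therefore possible, and every interval given here is at 95% and accounts only for the finite number of cells or molecules counted.

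The 72 hpf library held 33721297 UMIs, with a median of 6316 per cell (3293 to 46806), and the 48 hpf library had a median of 10411 per cell (2751 to 79992). The libraries shared 4 barcodes, none of them in a member. A UMI is a tag on each captured transcript molecule, so counts of UMIs are counts of molecules. The level of a gene is its CPM, that is, its share of a group's pooled UMIs scaled to 1000000. Since a deep cell meets a rule of single UMIs more easily, shares of cells are also given after thinning, a random draw of 2000 UMIs from each cell. The members were deeper than the cells they were compared with: their median was 7279 UMIs and 2031 genes, against 5941 UMIs and 1732 genes in the 3115 other cells with a *cdh5* UMI.

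The 4 genes of the rule belong to different families. *cdh4* (ENSDARG00000015002) encodes R-cadherin, a classical cadherin that joins like cells to each other. *gstm.3* (ENSDARG00000088116) encodes a glutathione S-transferase of the mu class, enzymes that couple glutathione to reactive compounds. *esr1* (ENSDARG00000004111) encodes the oestrogen receptor alpha, a nuclear receptor that binds DNA when it holds its ligand. *postna* (ENSDARG00000043806) encodes a periostin, a matricellular protein found in collagen-rich tissue such as heart valves. A further marker given for these cells but left out of the rule, *zfpm2b* (ENSDARG00000100560), encodes a zinc-finger cofactor of GATA factors of the Fog2 type, a family required for heart development. No known cell type is defined by this set of genes, and none is assigned to the members.

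Since members were selected on the 4 genes, the levels of those genes describe the choice. *postna* was the most frequent, with a UMI in 414 members (84.3%). *esr1* followed in 288 members (58.7%), *gstm.3* in 258 (52.5%) and *cdh4* in 182 (37.1%). Most positive members held few molecules: the median among cells with a UMI was 1 for *cdh4* and *esr1* and 2 for *gstm.3* and *postna*, and the highest counts in 1 cell were 10, 8, 52 and 21 UMIs. The members pooled stood at 60.6 CPM for *cdh4*, 308 for *gstm.3*, 105 for *esr1* and 382 for *postna*, against 5.36, 29.0, 14.97 and 75.7 CPM in the other *cdh5*-positive cells. The counts of *gstm.3* were the most uneven of the 4.

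Most members only just met the rule. Exactly 2 of the genes were seen in 360 members, 3 in 102 and all 4 in 29. The most frequent pair was *esr1* with *postna* (126 members), then *gstm.3* with *postna* (101) and *cdh4* with *postna* (61). The median depth was 6970 UMIs with 2 genes, 7783 with 3 and 8978 with 4. When the rule was applied to cells thinned to 2000 UMIs it found 187 cells (4.53%, interval 3.92 to 5.21%), of which 175 were among the 491. Without the 3 excluded genes there were 610 cells, and of these 96 held *postnb*, the periostin of valve interstitial cells, 19 *cfd* and 9 *myb*. Membership therefore depended on depth. For the 131 cells with 3 or 4 genes, clusters and summary counts are given, while single genes are mostly given for all members only. Their ratios to the other *cdh5*-positive cells could differ. The log2 ratio was -1.70 for *tmem88a* against -1.19 in all members, and 2.41 against 1.83 for *itga2.3*. For *stmn4l* it was 1.18 against 1.14.

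The genes occurred together more often than in the remaining cells, also when each was left out of its own selection. In the 398 cells chosen by *gstm.3*, *esr1* and *postna* alone, *cdh4* stood at 39.8 CPM, 4.05-fold its 9.84 CPM in the other *cdh5*-positive cells (log2 ratio 2.02, interval 1.70 to 2.33). The same comparison gave 3.77-fold for *gstm.3* (209 against 55.4 CPM), 3.08-fold for *esr1* (73.9 against 24.0 CPM) and 3.21-fold for *postna* (341 against 106 CPM). After thinning, *cdh4* was seen in 7.54% of the cells chosen by the other genes and in 2.03% of the rest. For *postna* the thinned shares were 39.9% and 13.6%. The 4 genes had been picked from a group of these same cells, so this describes how they fall together here and is no independent test.

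Blood cells, which should lack these genes, were looked at for RNA free in the droplets. Among 181 of them, called by at least 2 of 5 blood genes and no *cdh5* and far deeper at a median of 19029 UMIs, *cdh4* was seen in 1.66%, *gstm.3* in 2.21% and *postna* in 0.552% of cells. *esr1* was seen in 0 of 181 blood cells, which allows a share of up to 1.66%. Since cells with a *cdh5* UMI were left out, blood cells that held endothelial free RNA were passed over. The shares in the blood cells may therefore lie below what free RNA can give. The shares in the members were set by the rule and are not compared with these.

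Endothelial genes were looked at first, since the cells had been sorted by a reporter driven by *kdrl* sequence. *cdh5*, the cadherin of endothelial junctions, was seen in 480 members (97.8%), at 1905 CPM against 1620 in the comparison cells, where a *cdh5* UMI was required. *kdrl*, the receptor of VEGF, stood at 540 against 378 CPM, *cldn5a*, a tight-junction claudin, at 178 against 94.4, and *vwf*, the von Willebrand factor, at 129 against 85.4. The genes named so far were higher, but of 19 tested endothelial genes 7 lay above a log2 ratio of 0 and 12 below. Over all genes tested 43.3% lay below 0. The median log2 ratio of the list was -0.11. Of the 19, 18 lay within 2-fold, and *plvapb*, which forms the diaphragms of fenestrae, was lower at 15.6 against 80.1 CPM. Genes of other tissues were checked as well. Of 13 cardiomyocyte genes 5 had no UMI in any member. The 13 genes summed to 295 CPM in the members against 208. The higher sum came from *tnnt2a*, a troponin gene, at 251 against 139. It was the only gene of this list at the level needed for testing. The study also lists *tnnt2a* among the top genes of its valve endocardial cluster, so the sum is not read as cardiomyocyte RNA. The part of cardiomyocyte RNA in the other differences was not tested. Of 7 neural crest genes 5 had none, and of 7 epicardial genes 3 had none. The summed level of 14 blood genes was 569 CPM against 619, but 2197 of the 2328 UMIs came from 1 member. Without it the level in the members was 32.1 CPM. No cell was taken out of the comparison cells, so 32.1 is not compared with 619.

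When the 72 hpf library was clustered without the rule genes and without *zfpm2b*, the members did not form 1 group. The cluster with most members, called the main cluster here, held 191 of them, 38.9% of all members. It had 378 cells in all, so that members made up 50.5% of it (interval 45.4 to 55.7%). Its leading genes were *CT573383.1*, *ndrg3a*, *bcl6b*, *dcn* and *cilp*. The remaining 300 members were spread over 11 further clusters: 68 in the largest cluster, led by *sat1a.1* and *cyp1a* (7.94% of its cells), 53 in a cluster led by mitotic genes (18.0%), 50 in one led by DNA replication genes (11.3%), 49 in one led by *rspo2* and *spp1* (11.8%) and 45 in one led by *angptl7* and *pcolcea* (13.8%). The mitotic cluster was also deep, at a median of 10015 UMIs against 6119 in the main cluster, and its share of members at equal depth was 7.82% against 20.9%. Of the 131 members with 3 or 4 genes, 78 lay in the main cluster.

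**Figure D1:**
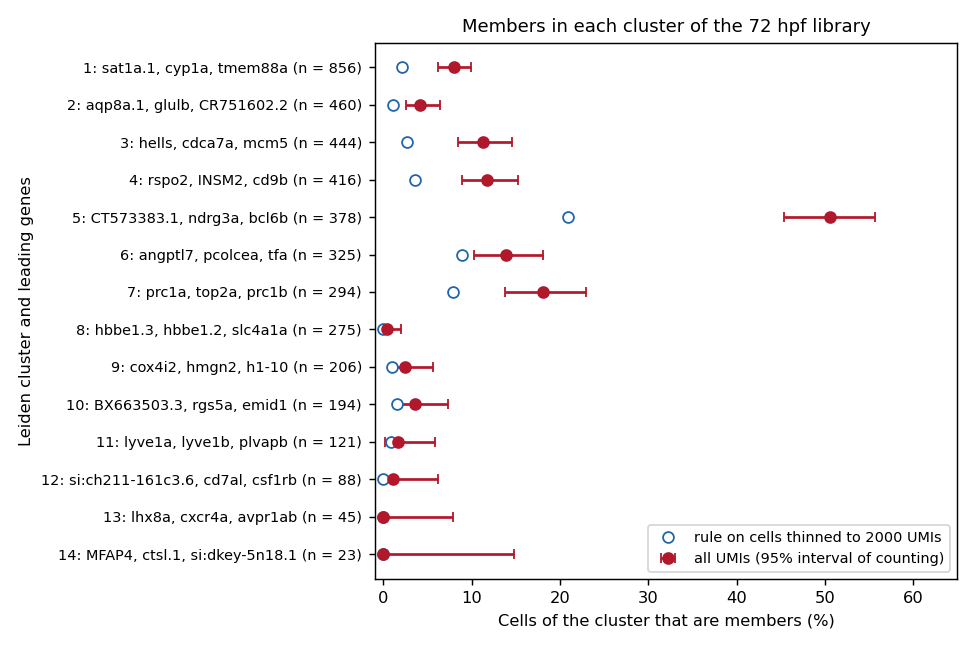
Share of the cells of each Leiden cluster of the 72 hpf library that met the rule (horizontal axis, percent), with all UMIs (filled points, 95% counting intervals) and with each cell thinned to 2000 UMIs (open points); each line names the cluster's 3 leading genes and its number of cells. Cluster 5 stands apart at 50.5%, while 6 other clusters lie between 4.13% and 18.0% and clusters 8, 12, 13 and 14 at 1.14% or less.

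The main cluster held 40.1% of all *cdh4* UMIs of the library, 40.5% of those of *gstm.3*, 35.2% of *esr1*, 27.0% of *postna* and 31.4% of *zfpm2b*. Over all of its 378 cells *cdh4* stood at 57.7 CPM, *gstm.3* at 323, *esr1* at 101 and *zfpm2b* at 78.2, in each case the highest of the 14 clusters. *postna* stood at 363 CPM there and was higher only in the *angptl7* cluster, at 454. The 187 cells of the main cluster that failed the rule were shallower, at a median of 5337 UMIs, and still held 157 CPM of *gstm.3* and 205 of *postna*, against 21.6 and 68.2 CPM in the *cdh5*-positive cells outside it that failed the rule.

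*zfpm2b*, a given marker that neither the rule nor the clustering used, was higher in the members and in the main cluster. It had been given as a marker with earlier results of these data known, so its higher level is no independent test. It stood at 87.6 CPM in members of the main cluster (interval 73.3 to 104) and at 66.5 in the other cells of that cluster (52.8 to 82.7), and these intervals overlapped. Members outside the cluster had 36.2 CPM (29.2 to 44.3) and the other *cdh5*-positive cells outside it 14.3 (12.7 to 16.0). In the whole set of members *zfpm2b* was seen in 27.3% of cells against 9.41%, and at equal depth in 8.96% against 3.34%.

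**Figure D2:**
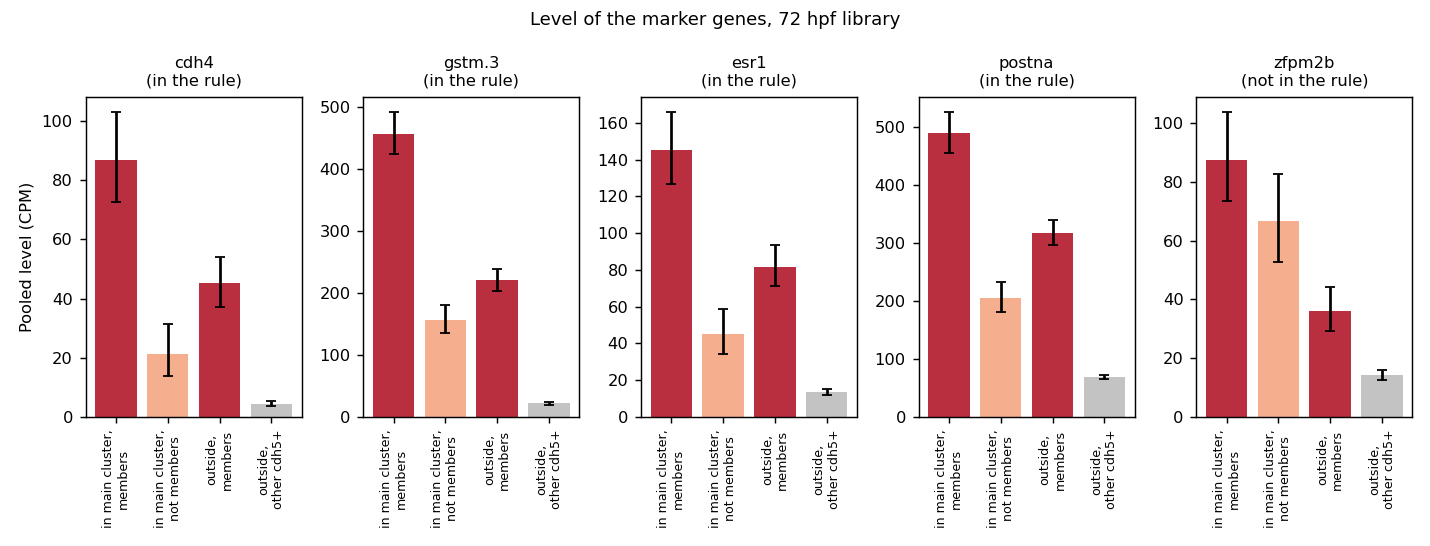
Pooled level in CPM (vertical axes, from 0) of the 4 rule genes and of *zfpm2b* in members and other cells inside the main cluster, members outside it and the other *cdh5*-positive cells outside it; bars are pooled levels and whiskers 95% Poisson intervals of counting. For the rule genes the difference between members and non-members follows from the choice. *zfpm2b*, outside the rule but itself a marker given for these cells, falls from 87.6 to 14.3 CPM across the 4 groups.

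Outside the rule, the members differed from the other *cdh5*-positive cells in few genes. Of 2284 genes at 50 CPM or more in either group, 38 were at least 2-fold higher (1.66%) and 26 at least 2-fold lower (1.14%), with 1 CPM added to each level, and the median log2 ratio over all of them was 0.03. Of the 38 genes, 3 are globins (*hbae3*, *hbbe1.1* and *hbbe2*), singled out after their values were seen. They came from the same single member, with 4390 globin UMIs of its 13203, while no other member had more than 1. Without that cell and another with blood genes, a choice made after the data were seen, 36 genes were higher and 31 lower. The 3 globins then turned to log2 ratios between -6.13 and -4.48. Only members were left out, while the other *cdh5*-positive cells kept their blood UMIs. These counts and ratios therefore compare unlike sets, and nothing is read from them. The number of genes tested without the members left out was not kept, so no share is given for the 36 and 31. The groups were split with single UMIs of the same cells, so these counts describe the split.

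The 25 genes with the highest ratios are described by what they encode, with no test of a theme. Among those for surface and matrix proteins, *itga2.3* (ENSDARG00000086838), a collagen-binding integrin alpha subunit gene, stood at 61.6 CPM against 16.6 (log2 ratio 1.83, interval 1.65 to 2.12). *cdh11* (ENSDARG00000021442), a mesenchymal cadherin, stood at 54.0 against 16.6 CPM. *colec12*, a scavenger receptor with a lectin domain, stood at 121 against 38.7 CPM and was seen in 48.7% of members against 20.8%. *dcn* (ENSDARG00000012066), which encodes decorin, a small proteoglycan that binds collagen fibrils, stood at 245 against 89.0 CPM.

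Further genes of the 25 encode fibril and matrix proteins. The fibrillar collagens *col1a1a* (441 against 187 CPM) and *col5a1* (700 against 326) were seen in 73.1% and 79.0% of members and in 40.4% and 48.5% of the other cells. *mfap2*, a component of elastic microfibrils, stood at 119 against 45.0 CPM, *thbs1b*, a thrombospondin, at 172 against 66.9, and *matn4*, a matrilin, at 158 against 70.1. *bmp1a*, whose product trims procollagen, stood at 50.4 against 22.0 CPM. *has2*, the hyaluronan synthase of the cardiac jelly, stood at 121 against 53.2 CPM.

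Genes of regulation formed a smaller group. *nanos1*, a translational repressor of a family known from germ cells, stood at 79.2 against 26.1 CPM. *bcl6b*, a transcriptional repressor, stood at 129 against 57.2 CPM, and *egr3*, an immediate early transcription factor, at 218 against 97.9. The unnamed locus *CT573383.1* had the highest level of the 25, at 789 against 271 CPM, with a UMI in 50.5% of members and 20.8% of the other cells. The remaining genes of the 25, besides *zfpm2b*, were *ndrg3a*, *si:ch211-117c9.5*, *fibinb*, *aif1l*, *kirrel3l*, *mpped2a*, *angptl2b*, *PLEKHH3* and *stmn4l*, between 2.20-fold and 3.40-fold. The activin-binding follistatin gene *fstl3* had the highest ratio of any tested gene, at 104 against 23.4 CPM, but was seen in only 20.2% of members. It and the mesenchymal transcription factor *twist1b* (88.2 against 31.1 CPM, 22.6% of members) fell below the 25% of cells asked of a named gene; *fstl3* was singled out after its value was seen.

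Of the 20 genes with the lowest ratios, 13 were past 2-fold and 7 were between 1.91-fold and 1.99-fold lower. *tmem88a* (ENSDARG00000056920), which encodes a membrane protein that dampens Wnt signalling in heart precursors, stood at 445 CPM in the members against 1014. *cyp1a* (ENSDARG00000098315), the monooxygenase induced through the aryl hydrocarbon receptor, stood at 118 against 282 CPM. *rhag*, a gas and ammonium channel gene, stood at 161 against 401, and *grb10a*, an adaptor of receptor tyrosine kinases, at 191 against 416. *gpr182*, a chemokine-scavenging receptor of endothelium, stood at 119 against 236 CPM, just within 2-fold. *eppk1*, the epiplakin gene, had the lowest ratio of the 20, at 27.4 against 82.4 CPM (log2 ratio -1.55, interval -1.88 to -1.31). For *pfn1*, a profilin, the level (139 against 285 CPM) and the share of cells (52.5% of members against 41.3%) went in opposite directions. *pfn1* stood at 4498 CPM in the blood cells, and no order is read from it.

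Among the 116 members and 704 other *cdh5*-positive cells scored as G1, 14 of the 25 higher and 11 of the 20 lower genes were past 2-fold. The scored phases moved with depth, from 23.6% of members in G1 to 46.6% at equal depth. No share over all genes was kept for these cells, and the part of the cell cycle was not tested. The log2 ratio there was 0.33 for *stmn4l*, 0.44 for *kirrel3l*, 0.45 for *has2*, 0.47 for *col5a1*, 0.58 for *bcl6b*, 0.62 for *matn4*, 0.66 for *egr3*, 0.79 for *col1a1a*, 0.81 for *bmp1a*, 0.95 for *PLEKHH3* and 0.98 for *mfap2*. For *twist1b* it was 0.07. Of the lower genes, *tmem88a* was at -0.99, *grb10a* at -0.76 and *gpr182* at -0.79 in these cells. Against all other cells of the library 22 of the 25 and 5 of the 20 were past 2-fold.

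**Figure D3:**
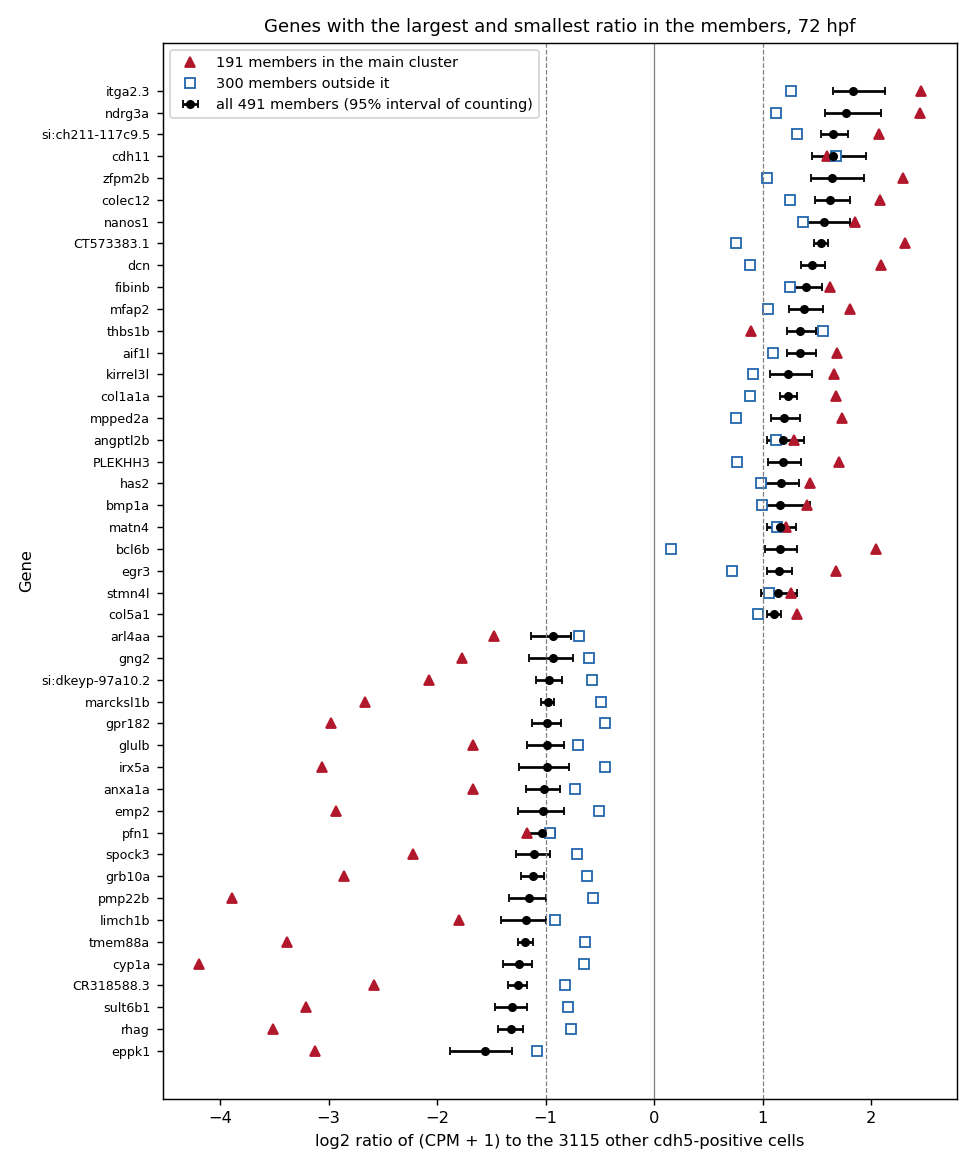
log2 ratio of pooled CPM + 1 to the 3115 other *cdh5*-positive cells (horizontal axis) for the 25 genes with the highest and the 20 with the lowest ratio; circles show all 491 members with 95% counting intervals, triangles the 191 members of the main cluster and squares the 300 outside it, and dashed lines mark 2-fold. Only genes seen in at least 25% of cells of the higher group were ranked. For 23 of the 25 genes the triangle lies to the right of the square, the exceptions being *cdh11* and *thbs1b*, and for all 20 lower genes it lies to the left.

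The split between members inside and outside the main cluster was wide for the lower genes. *tmem88a* stood at 96.1 CPM in members of the main cluster and at 650 in those outside it, *cyp1a* at 14.5 and 180, *rhag* at 34.2 and 235, and *pmp22b*, a tetraspan membrane protein gene, at 10.5 and 114. Among the higher genes, *bcl6b* stood at 239 CPM inside and 63.8 outside, the latter close to the 57.2 of the comparison cells, and *CT573383.1* at 1351 and 458. *thbs1b* went the other way, with 125 CPM inside and 199 outside. All of these genes were open to the clustering, so that the split is partly its product. In the members outside the main cluster alone, 28 genes were at least 2-fold higher and 11 lower. The number of genes tested for that subset was not kept, so no share is given and nothing is read from these counts. In the members outside the main cluster all 25 and all 20 named genes kept their direction, with 14 and 1 of them past 2-fold. Those members were part of the set on which the named genes were picked, so the kept direction is no independent test.

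Members and other cells overlapped in the number of these genes that they held. At equal depth, members held a median of 5 of the 25 higher genes (0 to 17) and the other *cdh5*-positive cells a median of 2 (0 to 15). The median was 6 for members in the main cluster and 3 for those outside it. Of the 20 lower genes, members held a median of 2 at equal depth (0 to 12) and the other cells 6 (0 to 15). The genes had been picked as the most extreme between these same cells, so the difference in medians restates that choice. No count of these genes in a single cell separated members from the rest.

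Levels are given next by the number of rule genes that a *cdh5*-positive cell without *postnb*, *cfd* or *myb* held. Since the 25 and 20 genes were picked as the most extreme between cells above and below the limit of 2 genes, the step at that limit restates the choice and supports nothing. *zfpm2b* stood at 12.6 CPM in the 1780 cells with none of the 4 genes, 20.2 in the 963 with 1, 42.5 in the 350 with 2, 75.3 in the 101 with 3 and 111 in the 29 with 4. *tmem88a* stood at 1177, 1033, 515, 367 and 174 CPM in the same order. The step across the limit of the rule, from 1 gene to 2, went in the direction of the comparison for all 25 higher genes (median step 1.02 on the log2 scale) and all 20 lower genes (-0.86). The step from 0 to 1 did so for 24 of 25 (median 0.69) and 19 of 20 (-0.24). Cells with 0 and with 1 gene both belonged to the reference against which these genes were picked. From 3 to 4 genes, where only 29 cells remain, it did so for 17 of 25 and 17 of 20. The same counts were not made over all genes tested, so nothing is read from the number of genes at any step. Depth moved with these steps, and its part in them was not tested.

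**Figure D4:**
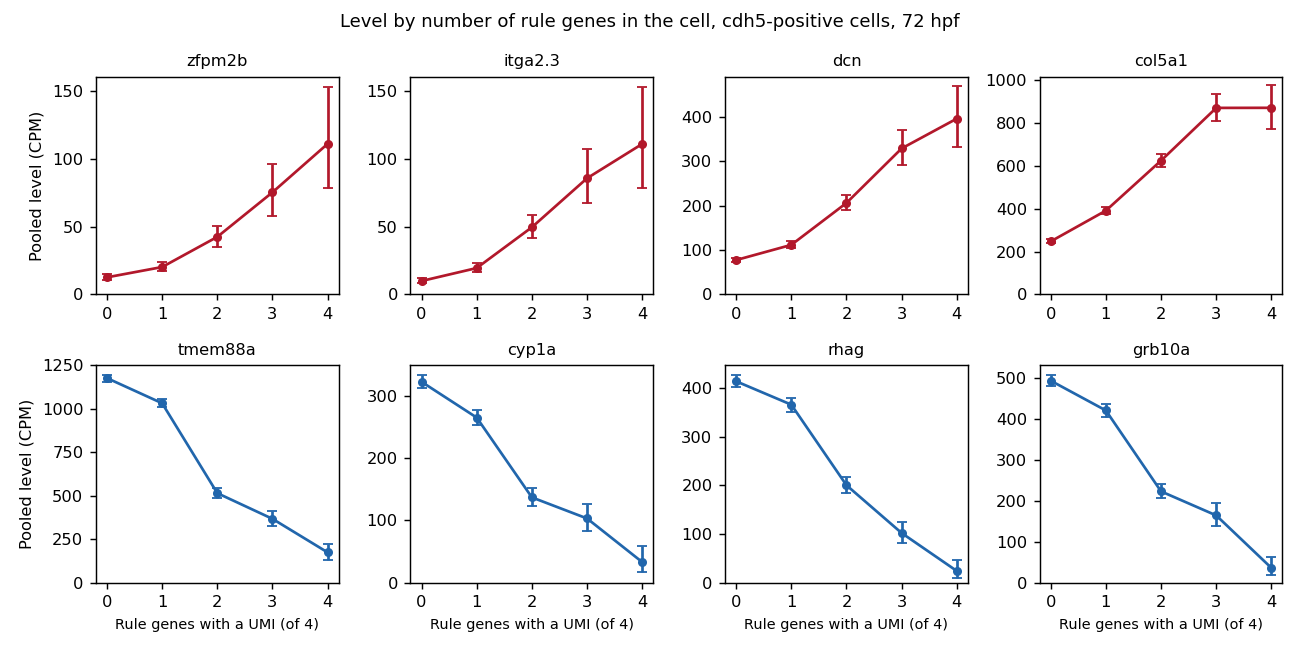
Pooled level in CPM (vertical axes, from 0) of 4 genes that were higher (upper row) and 4 that were lower (lower row) in the members, by the number of rule genes with a UMI in the cell (horizontal axes, 0 to 4) among *cdh5*-positive cells without *postnb*, *cfd* or *myb*; whiskers are 95% Poisson intervals of counting. *zfpm2b* goes from 12.6 to 111 CPM and *tmem88a* from 1177 to 174 CPM; median depth also goes from 5638 to 8978 UMIs along the axis.

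Lists of known genes, chosen with earlier results of these data in view, were compared next. Of 17 genes of valve interstitial cells, the fibroblast-like cells within the valve leaflets, 16 were tested and all 16 lay above 0, where 56.7% of all genes tested lay above 0 and 43.3% below, with 8 at least 2-fold higher and a median log2 ratio of 0.99, against 0.03 over all genes tested. Beside the collagens named above, the 8 include *col5a2a* (387 against 188 CPM) and *fibinb* (172 against 64.6). The members had been chosen without any *postnb*, a gene that marks these cells. However, 84.3% of them held *postna*, which stood highest, at 454 CPM, in the cluster led by *angptl7* and *pcolcea*, genes of this list. A rule with *postna* may thus favour the list, and its part was not tested. *angptl7* and *tfa*, further genes of that list, were carried by members outside the main cluster: *angptl7* stood at 407 CPM there and at 29.6 inside.

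Valve endocardial genes were mixed. Of 15 tested, *has2* was at least 2-fold higher and *anxa1a*, an annexin, at least 2-fold lower (91.7 against 186 CPM), with a median of 0.29. *crip2* stood at 845 against 482 CPM and *anxa2a* at 1066 against 685, whereas *crip1* stood at 540 against 912, the last 3 all within 2-fold. Of 11 tested genes of the ventricular chamber endocardium, 9 lay below 0, against 43.3% of all genes tested, with a median of -0.56. *tmem88a* and the water channel gene *aqp8a.1* (95.6 against 234 CPM) were past 2-fold, while *tmem88b* (768 against 1329 CPM) and *fabp11a* (1890 against 3074 CPM) were not. All 4 tested lymphatic and venous genes lay below 0, where 43.3% of all genes tested did. Of them, *lyve1a* (31.5 against 105 CPM, in 0.815% of members and 2.70% of the other cells) and *dab2* (26.9 against 75.6 CPM), an endocytic adaptor, were past 2-fold.

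Relatives of the rule genes were listed too. Over all genes tested 1.66% were at least 2-fold higher and 1.14% lower, so that lists this short would hold few such genes at the same shares. Of 14 tested genes of glutathione and xenobiotic metabolism none was 2-fold higher and *cyp1a* alone was lower, with a median of -0.10. The nearest relative measured, *gstm.1*, stood at 143 against 89.5 CPM, a log2 ratio of 0.67. *gstm* genes are close copies, and how reads shared between them were counted is not given in the sources used here. Of 6 tested nuclear receptors and their coregulators none was past 2-fold, with a median of 0.13. Of 5 tested cadherins and catenins 1 was higher, *cdh11*. Of 16 tested matricellular and basement membrane genes 2 were higher, *thbs1b* and *has2*, with a median of 0.28.

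The signalling lists were also short. Over all genes tested 1.66% were at least 2-fold higher and 1.14% lower, and nothing is read from the counts past 2-fold in these lists. Of 13 tested BMP and TGF-beta genes none was past 2-fold, and *bmp4* was the highest at 56.7 against 28.7 CPM (log2 ratio 0.96). None of 4 Wnt, 6 arterial and Notch, 7 flow-responsive and 7 axon guidance genes tested was past 2-fold. Of 4 tested retinoic acid and IGF genes *igfbp1a*, an IGF-binding protein, was lower at 40.6 against 147 CPM. *twist1b* was the single gene of 11 tested cardiac transcription factors past 2-fold, and *hand2* stood at 538 against 319 CPM. *tbx2a*, a T-box repressor of the atrioventricular canal, was under the level needed for the count but stood at 40.8 against 7.66 CPM. Of 23 tested immediate early genes, which respond to dissociation, *egr3* was the single one past 2-fold, and the list summed to 16493 CPM against 17587.

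**Figure D5:**
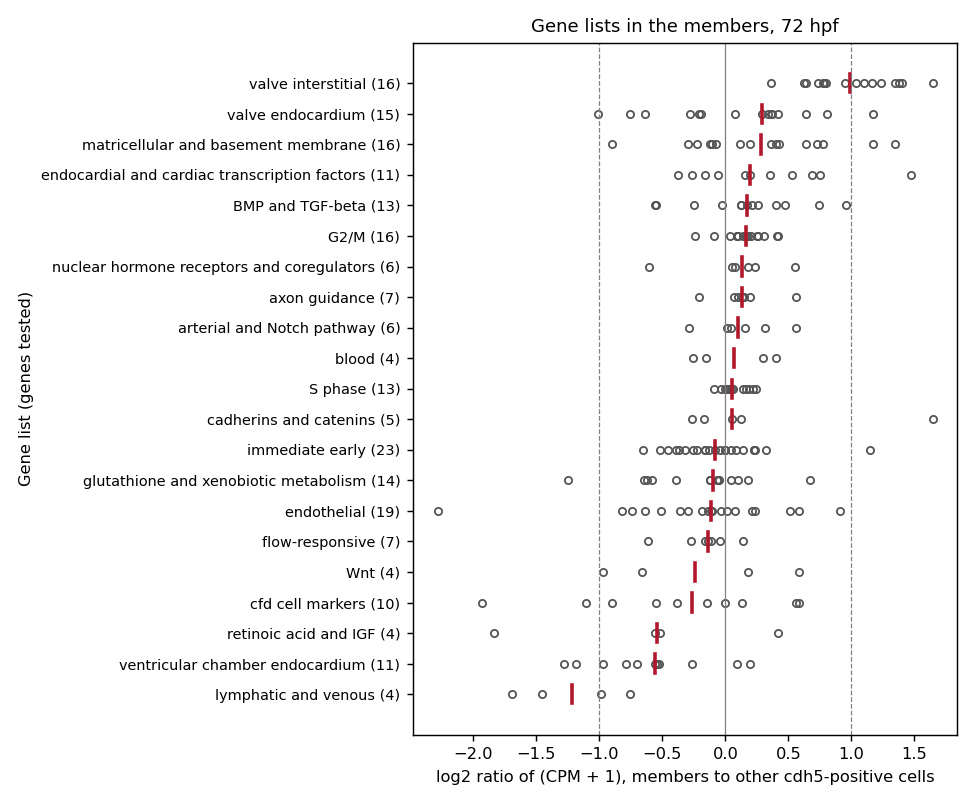
log2 ratio of pooled CPM + 1, members to other *cdh5*-positive cells (horizontal axis), for each tested gene (open circles) of the lists with at least 4 tested genes, whose number stands in brackets; red bars are list medians and dashed lines mark 2-fold. The valve interstitial list lies wholly to the right of 0 and the lymphatic and venous list wholly to the left.

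Single classes of cells, picked by pairs of known markers, were set beside the members. Valve interstitial cells (91 cells, with a UMI of both *postnb* and *col1a2*) had most of the same genes at higher levels: of the 25, 1 was at least 2-fold higher in the members (*bcl6b*, 129 against 63.8 CPM) and 9 at least 2-fold lower, against 6.04% and 7.57% of all 2535 genes tested. *col1a1a* stood at 964 CPM, *cdh11* at 189 and *thbs1b* at 977 in those cells. Of 17 endothelial genes tested against those cells, *cdh5* left out, 13 were at least 2-fold higher in the members and none at least 2-fold lower, with a median log2 ratio of 1.40. *kdrl* stood at 540 CPM (831 in the main cluster) against 103.

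Valve endocardial cells (303 cells, with *alcama* and *has2* and no *postnb*) were also compared: without *has2*, by which those cells were picked, 9 of the 25 genes were at least 2-fold higher in the members and 1, *stmn4l*, at least 2-fold lower, against 6.00% and 5.09% of 2418 genes tested. *icn*, a calcium-binding gene of the S100 type high in valve cells, stood at 3255 CPM in the members and 6910 in the valve endocardial cells, and *crip1* at 540 and 4592. Of the members, 118 held both *alcama* and *has2* themselves. Ventricular cells (443 cells, with *vcam1b* and *sat1a.1*) were, like the other classes, part of the cells against which the 25 and 20 genes were picked. Of the 25 genes, 24 were at least 2-fold higher in the members, against 6.86% of 2318 genes tested. Of the 20 lower genes, 15 were at least 2-fold lower, against 4.18%. *CT573383.1* stood at 34.5 CPM and *tmem88a* at 2186 CPM in those cells. Still, 73 members held both *vcam1b* and *sat1a.1*. Cells with *cfd* and *emid1* (100 cells) were also part of those reference cells. Against them, 20 of the 25 genes were at least 2-fold higher in the members, against 10.0% of 2435 genes tested. Of the 20 lower genes, 4 were at least 2-fold lower, against 8.83%, and 6 at least 2-fold higher. Against the valve classes more of the 20 lower genes were higher than lower in the members: against valve endocardial cells 3 of the 20 were at least 2-fold lower and 7 at least 2-fold higher, and against valve interstitial cells 2 and 11.

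Cell cycle genes differed little in level between all members and the other *cdh5*-positive cells, with log2 ratios from -0.24 to 0.41. Of 13 tested S-phase genes 10 lay above 0, and of 16 tested G2/M genes 14 did, against 56.7% of all genes tested. The medians were 0.05 and 0.17. None was past 2-fold, where 1.66% of all genes tested were higher and 1.14% lower, so nothing is read from that. Inside the set the difference was large: *top2a*, the topoisomerase of dividing cells, stood at 2.63 CPM in members of the main cluster and 166 in those outside it, and *mki67* at 17.8 and 241. These genes lead clusters of their own, so that this split too comes with the clustering. Scored phases moved with depth. At full depth 23.6% of members scored as G1 against 22.6% of the other *cdh5*-positive cells, and at equal depth 46.6% (interval 42.2 to 51.2%) against 50.9% (49.2 to 52.7%). As S phase 15.9% of members scored at full depth (12.8 to 19.4%) against 11.3% (10.2 to 12.5%). At equal depth these shares were 18.9% (15.6 to 22.7%) and 14.7% (13.5 to 16.0%). Of the members in the main cluster 59.2% scored as G2/M at full depth in spite of their low *top2a*, so no cycling is read from the calls.

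At 48 hpf the genes were rare. *cdh4* stood at 0.618 CPM over the whole library against 11.7 at 72 hpf, *gstm.3* at 1.82 against 64.7, *esr1* at 4.85 against 23.2 and *postna* at 5.08 against 109. *zfpm2b* stood at 8.59 against 20.2 CPM. With 1 library per age, age and library cannot be told apart. Of the 12 cells that met the rule, at a median of 15149.5 UMIs, none held 3 of the genes, and 2 met it at equal depth. In 10 of them *esr1* was 1 of the genes. A pair of them held 13 and 27 *postna* UMIs, the former with 3 and the latter with 5 of *esr1*, and each of this pair also had 2 *zfpm2b* UMIs, the only ones among the 12.

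In the 48 hpf library, which the rule and the choice of named genes did not use, 209 *cdh5*-positive cells without *postnb*, *cfd* or *myb* held at least 1 of the 4 genes. Over the whole library *esr1* was seen in 129 cells, *gstm.3* in 44, *postna* in 44 and *cdh4* in 19. There, 206 cells held 1 of the genes and 15 held 2. Most of the 209 therefore fell short of the rule and are not like the members at 72 hpf. Against the 2354 with none, 22 of the 25 higher genes were higher by any amount, against 58.3% of the 2284 genes, and 17 of the 20 lower genes were lower, against 41.6%. The differences were small, with medians of 0.51 and -0.34 on the log2 scale, and 5 of the 25 and 0 of the 20 were past 2-fold. The share of all genes past 2-fold was not counted at 48 hpf, so nothing is read from the counts past 2-fold. *stmn4l* (133 against 45.3 CPM) and *nanos1* (10.9 against 3.21 CPM) were the largest of the 25. The level of *nanos1* rested on 30 UMIs in the 209 cells, and the 12 cells that met the rule held 11. For *stmn4l* these counts were 368 and 38. *zfpm2b* was at 10.9 against 8.24 CPM, with an interval of the log2 ratio from -0.20 to 0.96, *dcn* was lower at 105 against 126 CPM, and *cyp1a* was higher at 199 against 170 CPM. The cells with a rule gene were deeper here too, at a median of 11895 UMIs against 10233.5, and the part of depth in these differences was not tested.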

How the data were processed

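The authors deposited, per the labels, 1 matrix of raw UMI counts per gene and cell for each age, made with a droplet 3′ kit and not normalized. The submitters' processing notes name STARsolo, Scanpy and the build danRer11, and the steps that called cells are not given in the sources used here. All values were whole numbers. The members and gene lists were chosen with earlier results of these data known, and every gene of these cells was open to that choice, so no value is an independent test.

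Analyses were run in Python 3.11 with scanpy 1.11.5, numpy 2.4.6, scipy 1.17.1 and pandas 2.3.3. UMIs of a symbol were summed for the rule. Members were compared with all other cells with a *cdh5* UMI, which include cells left out for *postnb*, *cfd* or *myb*. A gene was tested at 50 CPM or more in either group and counted at 2-fold or more on pooled CPM with 1 added. Named genes were the 25 highest and 20 lowest ratios among genes seen in at least 25% of cells of the higher group, without the 7 rule genes, and any gene of the 25 lists. Intervals were exact: binomial (Clopper-Pearson) for shares, Poisson for levels in CPM, and conditional for ratios, the last on CPM without the added 1. These cover counting error only, and a count of 0 was given the limit of 3 counts. Leiden clusters (leidenalg 0.10.2, igraph 0.11.9) used 2000 variable genes, 30 components, 15 neighbours and resolution 0.6 on counts scaled to 10000 per cell. All cells were kept. Scrublet marked 2 of 4125 cells (0.0485%) and none of the members, so it has not worked here and doublets were left in. The ratio code was tested on simulated counts. Alternatives to the rule, the reference cells, the CPM minimum, the depth and the clustering were run. No sequence is printed, since none was used here.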

Additional observations from a re-analysis of the deposited data

How the results depend on the processing

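The number of members rested on the rule and on depth: 131 with at least 3 of the 4 genes and 187 at 2000 UMIs per cell, against 491, whereas dropping the excluded genes, asking for *cdh5* or leaving out the deepest 5% of cells gave 480 to 610. The counts of genes at least 2-fold higher and lower, 38 and 26, became 71 and 89 in members with at least 3 genes and 86 and 135 in members of the main cluster alone. They were 73 and 63 at a minimum of 20 CPM, 25 and 16 at 100 CPM, and 21 and 70 in cells scored as G1. Against all other cells of the library 52 genes were lower, and with members outside the main cluster, chosen after the data were seen, 11. The number of genes tested under each alternative was not kept. No share therefore stands beside these counts, and their sizes are not compared with 38 and 26. The share of members scored as G1 was 46.6% after thinning. The share in the main cluster was 49.9% at resolution 0.3 and 59.5% with at least 3 genes. The 25 higher and 20 lower named genes kept their direction under all alternatives run, but not their size: 14 and 11 were past 2-fold in G1 cells, 22 and 5 against all other cells, and 14 and 1 in members outside the main cluster. The alternatives drew on the same cells from which these genes were picked, so the kept direction is no independent test. Of all genes past 2-fold, only 3 globins, carried by 1 member, changed sign. With at least 3 genes, in the main cluster and without the members with blood genes, only the members were narrowed. The reference cells kept their globin UMIs there, so nothing is read from the sign. For *hbbe1.1* the log2 ratio was -6.29 with at least 3 genes, -5.84 in the main cluster, -0.48 against all other cells, -0.0013 in G1 cells and -6.13 without the members with blood genes, an alternative chosen after the data were seen. For *hbae3* it was -5.17, -4.87 and -0.46 in the first 3 of these and -4.74 in the last, and for *hbbe2* -4.60 and -5.47 in the first pair and -4.48 in the last. No paired analysis was possible because each age had 1 library. The depth of single cells limits genes of a few molecules, such as *cdh4* and *esr1*, to most cells showing 0 or 1 UMI.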
